A study of Homo sapiens with 11 samples.

Results

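The 38 HOX genes described here are members of the HOX clusters A, B, C and D of the human genome, taken as the rows of the count table whose Ensembl identifier maps to a member symbol. All 38 were matched to 1 identifier each, out of 57736 gene identifiers in the table. Cluster A gave 10 members, cluster B 10, cluster C 9 and cluster D 9. The values come from RNA-seq of HEC50B, an endometrial cancer cell line. R183W cells are the parental line, in which PPP2R1A has the R183W substitution; the gene encodes the scaffold that holds the PP2A phosphatase together. WT cells are a CRISPR derivative with wild-type PPP2R1A, and whether they are 1 clone is not given in the labels. R183W cells with 50 µM WM1119, an inhibitor of the histone acetyltransferase KAT6A, had 2 libraries, while R183W cells with vehicle, WT cells with WM1119 and WT cells with vehicle had 3 each. Treatment lasted 4 days. The labels do not say that the libraries of a group are separate cultures, so p-values measure only the spread between these libraries, which may be technical. Gene counts cannot show the substitution itself.

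HOX proteins are homeodomain transcription factors that give cells their position along the body axis. Within a cluster the genes lie in the order of their paralog group numbers, and low numbers are in general active earlier and nearer the head than high numbers. KAT6A and the MLL proteins keep HOX genes active, the Polycomb complexes keep them silent, and retinoic acid induces the low-numbered ones. PBX, MEIS and PKNOX proteins bind DNA together with HOX proteins. In the Mullerian duct and the adult uterus, HOXA9, HOXA10, HOXA11 and HOXA13 mark successive regions, and HOXA10 and HOXA11 are needed for the endometrium to receive an embryo.

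Library totals ran from 2609922 to 6065149 counts. WT WM1119 library 3 was the shallowest and stood apart: its log CPM correlated with the other libraries of its group at 0.917 and 0.937, against 0.957 to 0.975 for the other replicate pairs, across genes. CPM values are counts set to the same library total with TMM factors. A count of 0 allows up to 0.495 to 1.24 CPM, depending on the library, with 3 counts as the floor, and these floors cover counting error only. Of the cell type markers listed, KRT8, KRT18 and EPCAM were well above the floor and PAX8, a Mullerian factor, ran from 326 to 549 CPM, whereas CDH1 and KRT19 stayed under 1 CPM. Of the 7 fibroblast and stromal markers, COL1A1 ran from 565 to 927 CPM, PDGFRA from 80.9 to 184 CPM, PDGFRB from 0.240 to 52.2 CPM and LUM from 0 to 4.14 CPM, COL1A2 had at most 0.762 CPM, and COL3A1 and DCN had 0 counts in every library. Of the endothelial and immune markers, CDH5 had 0 and PTPRC at most 0.223 CPM.

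The promoters of 4 members are shown because these are the ones among the members given in full below that the RefSeq promoter table holds. HOXA2 and HOXA7 passed a test in at least 1 comparison, and HOXA4 and HOXD8 had the highest level per kb of cluster A and cluster D. Each is the 250 bases before the start of the gene, read 5′ to 3′ on its own strand, from RefSeq on GRCh38.p14. HOXA2 lies at chr7:27102684-27102933 on the minus strand, HOXA4 at chr7:27130758-27131007 on the minus strand, HOXA7 at chr7:27156676-27156925 on the minus strand and HOXD8 at chr2:176129455-176129704 on the plus strand. Capitals mark matches on either strand to TGATNNAT (a PBX-HOX motif), TGACAG (a MEIS and PKNOX motif) and CCAAT.
HOXA2: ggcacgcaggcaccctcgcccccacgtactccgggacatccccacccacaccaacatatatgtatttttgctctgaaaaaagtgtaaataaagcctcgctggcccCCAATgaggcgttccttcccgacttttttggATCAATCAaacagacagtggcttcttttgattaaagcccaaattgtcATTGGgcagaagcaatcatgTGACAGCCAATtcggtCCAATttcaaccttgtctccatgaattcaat
HOXA7: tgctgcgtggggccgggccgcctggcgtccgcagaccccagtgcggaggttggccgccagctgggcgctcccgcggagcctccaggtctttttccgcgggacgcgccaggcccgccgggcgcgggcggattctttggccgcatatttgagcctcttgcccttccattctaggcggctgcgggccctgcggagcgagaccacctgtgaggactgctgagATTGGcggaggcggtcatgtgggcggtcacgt
HOXA4: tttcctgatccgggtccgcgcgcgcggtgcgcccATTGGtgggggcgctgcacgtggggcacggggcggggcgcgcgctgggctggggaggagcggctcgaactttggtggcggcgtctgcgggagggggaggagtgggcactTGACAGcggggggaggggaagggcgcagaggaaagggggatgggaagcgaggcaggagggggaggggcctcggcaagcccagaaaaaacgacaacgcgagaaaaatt
HOXD8: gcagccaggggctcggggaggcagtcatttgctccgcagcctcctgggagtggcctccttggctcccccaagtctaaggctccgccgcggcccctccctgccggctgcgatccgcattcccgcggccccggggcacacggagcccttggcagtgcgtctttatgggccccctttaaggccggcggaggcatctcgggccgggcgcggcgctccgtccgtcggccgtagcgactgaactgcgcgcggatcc
The HOXA2 window held 1 match to TGATNNAT, 1 to TGACAG and 4 to CCAAT, and its TGACAG match runs directly into a CCAAT match. The HOXA7 window held 1 match to CCAAT, the HOXA4 window 1 to TGACAG and 1 to CCAAT, and the HOXD8 window none of these. The 20 members with a window in the table had 27 windows together. In at least 1 window, 3 of these members had TGATNNAT, 2 had TGACAG and 17 had CCAAT. Among all 35116 promoter windows of that length, the shares were 6.47%, 13% and 32.0%. These shares are per window and the counts are per member, so they are not on the same base. A match is a description of letters and not of a bound site.

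HEC50B cells had most of their HOX transcripts from clusters A, B and C and few from cluster D. Of the 38 members, 24 passed the filter on low counts, which were 8 of 10 in cluster A, 9 of 10 in cluster B, 6 of 9 in cluster C and 1 of 9 in cluster D. HOXB1, HOXC12 and HOXD12 had 0 counts in all 11 libraries. HOXC5 had 0 counts under its own identifier; a second identifier that GENCODE also names HOXC5, for a processed transcript, had 4.66 to 12.4 CPM and passed no test. Members under the filter with any count were HOXA6, HOXA13, HOXC11, HOXD1, HOXD3, HOXD4, HOXD9, HOXD10, HOXD11 and HOXD13, with at most 67 counts in all libraries together.

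Levels were compared between genes as CPM per kb of exon, averaged over the 11 libraries. HOXB5 was highest at 52.5 CPM per kb, followed by HOXB7 at 38.2, HOXA4 at 31.1, HOXB9 at 20.0 and HOXC8 at 18.6. The ranges of HOXB5 (35.6 to 87.0 CPM per kb) and HOXB7 (30.5 to 48.5) overlapped, and so did those of HOXB7 and HOXA4 (20.9 to 37.1). The top of cluster D, HOXD8, had 2.82 CPM per kb. By position, the 15 members of the central paralog groups 4 to 8 held 66.4% to 76.2% of the summed HOX level per kb of a library, the 16 of the posterior groups 9 to 13 held 20.3% to 27.1%, and the 7 of the anterior groups 1 to 3 held 3.19% to 6.50%. Cluster B made up 48.3% to 57.5% of that sum, cluster A 18.4% to 29.6%, cluster C 18.8% to 23.4% and cluster D 0.618% to 1.83%. Among the Mullerian members, HOXA10 had 16.8 CPM per kb, HOXA11 had 3.77 and HOXA9 had 2.67, while HOXA13 had 3 counts in all.

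**Figure D1:**
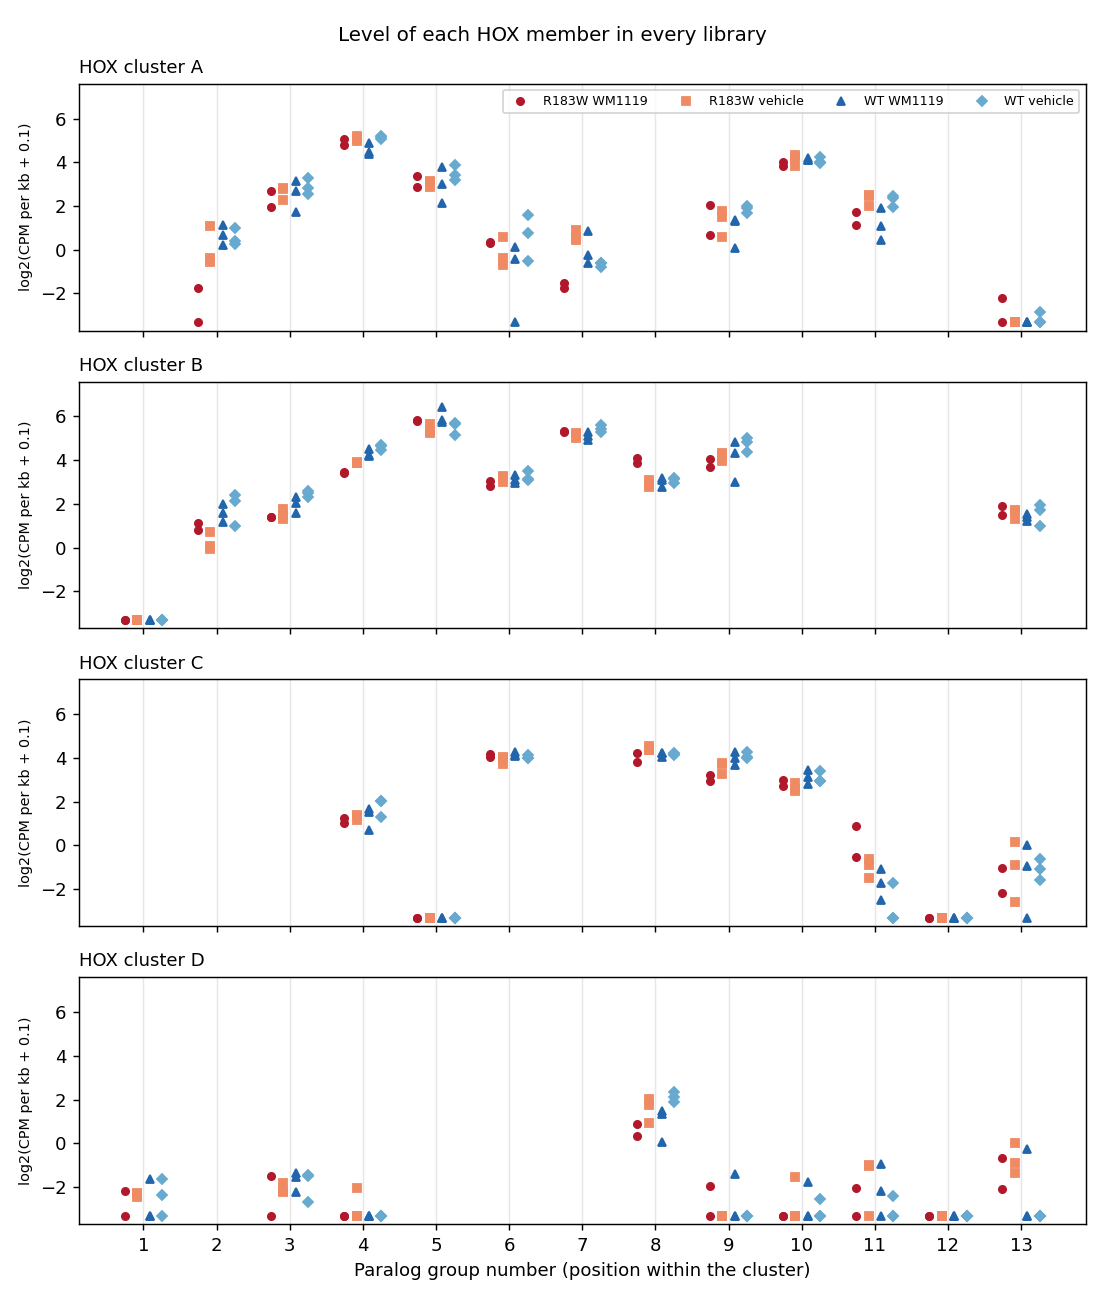
Level of each member in each library, as log2 of CPM per kb of exon plus 0.1, against its paralog group number, with 1 panel per cluster and 1 symbol and colour per group. Points at the bottom of a panel are libraries with 0 counts, and positions without points have no member here. Clusters A, B and C peak between groups 4 and 10, and in cluster D every point of HOXD8, from 0.942 CPM per kb, lies above every point of the other members, which reach 0.905.

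Summed over members, clusters B and C were lower in R183W than in WT cells under both treatments. Clusters A and D were lower with WM1119 than with vehicle in both genotypes. Cluster B summed to 340 ± 0.0707 CPM (SD, n = 2) in R183W cells with WM1119 and 315 ± 6.90 (n = 3) with vehicle, and to 393 ± 19.9 in WT cells with WM1119 and 423 ± 29.1 with vehicle (n = 3 each). Every R183W library lay below every WT library. Cluster A summed to 163 ± 6.43 CPM with WM1119 and 192 ± 13.5 with vehicle in R183W cells, and to 166 ± 21.7 and 204 ± 8.54 in WT cells. Here each WM1119 group lay below its vehicle group without overlap. Cluster C ran from 125 to 146.0 CPM in R183W libraries and from 146.8 to 160 CPM in WT libraries, so these did not overlap either. Its means were 134 and 138 in R183W cells with WM1119 and vehicle and 154 and 152 in WT cells. Cluster D, which is mostly HOXD8, summed to 5.42 ± 0.825 CPM with WM1119 and 10.7 ± 2.55 with vehicle in R183W cells, and to 7.54 ± 2.64 and 12.3 ± 1.94 in WT cells. As in cluster A, each WM1119 group lay below its vehicle group without overlap. These sums are descriptions and were not tested. In bulk RNA, a lower level in each cell and fewer cells that express a gene cannot be told apart.

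**Figure D2:**
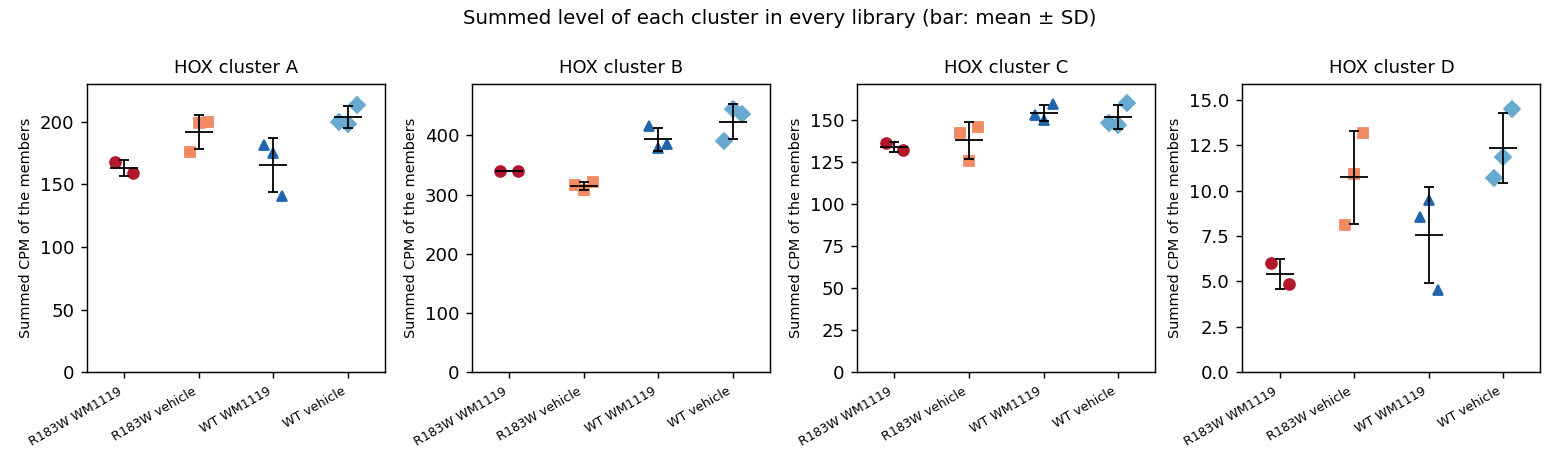
Summed CPM of the members of each cluster in every library, by group, with the mean and SD as a bar. In cluster B the R183W libraries lie between 307 and 340 CPM, below the WT libraries, which lie between 379 and 444 CPM.

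The members called between the genotypes under vehicle lay at the low-numbered end of cluster B. HOXB2, HOXB3 and HOXB4, which are neighbours in the cluster, were lower in R183W than in WT cells with vehicle, and no member passed the test as higher. These 3 of the 24 members tested compare with 6.17% of all 13980 genes tested called as lower, and 13% called in either direction. As a share, 3 of 24 is close to that 13%. Calls were made by edgeR's quasi-likelihood test at a Benjamini-Hochberg adjusted p under 0.05. The median log2 change was -0.29 over the HOX members tested and -0.01 over all genes tested. All 9 tested members of cluster B had a negative log2 change, against 5 of 8 in cluster A, 4 of 6 in cluster C and 7080 of all 13980 genes tested. Between the genotypes under WM1119, negative changes were 6 of 9 in cluster B, 5 of 8 in cluster A and 6 of 6 in cluster C. Of all genes tested, 7254 were negative there.

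HOXB4, known in blood stem cells for promoting self-renewal, had 54.4, 53.9 and 57.0 CPM in R183W vehicle libraries, against 83.2, 94.5 and 97.3 CPM in WT vehicle libraries. The R183W libraries lay close together and well below the WT libraries. The log2 difference was -0.73 (SE 0.13, edgeR adjusted p = 0.00265). HOXB3, a hindbrain and pharyngeal patterning gene, had 17.8, 20.6 and 24.3 CPM in R183W vehicle libraries, against 36.4, 43.8 and 41.2 CPM in WT vehicle libraries. Again there was no overlap, and the log2 difference was -0.96 (SE 0.20, edgeR adjusted p = 0.00568). HOXB2, which acts in hindbrain segments, had 1.98, 3.64 and 2.23 CPM in R183W vehicle libraries, against 4.46, 9.91 and 12.04 CPM in WT vehicle libraries. Its log2 difference was the largest of the 3, at -1.76 (SE 0.42, edgeR adjusted p = 0.0138). HOXB3 and HOXB4 passed the test whichever library was left out. HOXB2 did not without R183W vehicle library 1 (adjusted p = 0.0791) or 3 (0.0582), or without WT vehicle library 2 (0.0592) or 3 (0.0737). When WT WM1119 library 3 was left out of the fit, HOXA7 as higher and HOXB9 as lower joined them, giving 5 calls.

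Within cluster B the log2 difference was largest at HOXB2, HOXB3 and HOXB4 in turn, and the higher-numbered members followed no steady order. HOXB5, HOXB6, HOXB7 and HOXB8 had log2 differences of -0.10, -0.10, -0.31 and -0.16 under vehicle, HOXB9 had -0.60 (SE 0.31, adjusted p = 0.229) and HOXB13 had -0.04. The Spearman correlation between paralog number and log2 difference under vehicle was 0.70 over the 9 members of cluster B, 0.38 over 8 members of cluster A and 0.54 over 6 members of cluster C. Between the genotypes under WM1119 it was 0.73 in cluster B and 0.48 in cluster A, but -0.66 in cluster C. For WM1119 against vehicle, signs were mixed, from -0.37 to 0.24 in R183W cells and from -0.43 to 0.60 in WT cells. The members of a cluster share libraries and differ in depth, so these values describe order and carry no p.

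A pair of members too low for the filter stood higher in R183W vehicle libraries. HOXD13, the last gene of its cluster and a limb and genital patterning factor, had 0.990, 0.642 and 2.03 CPM in R183W vehicle libraries and 0 counts in all 3 WT vehicle libraries. With 19 counts against 0 over the groups, the R183W level was 6.08 times a floor of 3 counts over the WT group. That ratio leaves out the counting error of the 19 counts. HOXC11 had 22 counts in R183W vehicle libraries and 3 in WT vehicle libraries, a ratio of 7.04 with an exact 95% counting interval of 2.12 to 36.7. With no filter on low counts, HOXD13 passed edgeR's test (adjusted p = 0.0245) and HOXC11 did not (adjusted p = 0.0948). Under WM1119, HOXD13 had 6 counts in R183W libraries and 4 in WT libraries, so WT cells were not without it. HOXC11 had 27 and 7 counts there. With no filter, neither passed edgeR's test between the genotypes under WM1119 (adjusted p = 0.895 for HOXD13 and 0.116 for HOXC11).

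Under WM1119, R183W cells were again lower in HOXB4 than WT cells and also in HOXA2 and HOXC9, while HOXB8 was higher. These 4 of 24 members compare with 8.56% of all genes tested. The HOX median log2 difference was -0.24, against -0.02 over all genes tested. HOXB4 had 39.1 and 41.1 CPM in R183W WM1119 libraries, against 84.1, 70.1 and 67.3 CPM in WT WM1119 libraries, and its log2 difference was -0.89 (SE 0.16, edgeR adjusted p = 0.00333). HOXB3 had 19.2 and 18.7 CPM against 35.8, 29.8 and 21.9 CPM, also without overlap, but did not pass (-0.64, SE 0.23, edgeR adjusted p = 0.112). HOXB2 had 3.84 and 4.83 CPM against 9.01, 6.68 and 4.95 CPM (-0.70, SE 0.48, edgeR adjusted p = 0.414).

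HOXC9, a thoracic patterning gene, had 15.6 and 12.7 CPM in R183W WM1119 libraries, against 21.5, 26.5 and 32.6 CPM in WT WM1119 libraries. The groups did not overlap, and the log2 difference was -0.90 (SE 0.25, edgeR adjusted p = 0.0394). Under vehicle it had 23.1, 15.8 and 22.1 CPM in R183W cells, against 27.9, 27.1 and 32.4 CPM in WT cells, and its log2 difference was -0.51 (SE 0.21, edgeR adjusted p = 0.121).

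HOXA2, which patterns the hindbrain and the second pharyngeal arch, had 0.480 and 0 CPM in R183W WM1119 libraries, against 2.64, 5.14 and 3.72 CPM in WT WM1119 libraries. Both R183W values lie under the floors of 0.720 and 0.906 CPM of those libraries. Its 2 counts against 41 gave a ratio of 0.0709 with an exact 95% counting interval of 0.00831 to 0.273. The edgeR adjusted p was 0.0296. Under vehicle HOXA2 had 1.65, 4.92 and 1.42 CPM in R183W cells, against 2.68, 4.57 and 3.01 CPM in WT cells, and the groups overlapped.

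The calls under WM1119 depended on the few R183W libraries. Without R183W WM1119 library 1 none of the 4 passed, with adjusted p-values of 0.0615 for HOXB4, 0.129 for HOXB8, 0.0858 for HOXA2 and 0.124 for HOXC9. HOXA2 was also lost without R183W WM1119 library 2 (0.205) or WT WM1119 library 2 (0.0867). HOXC9 was lost without R183W WM1119 library 2 (0.268), WT WM1119 library 2 (0.0856), R183W vehicle library 3 (0.0578) or WT vehicle library 2 (0.0547). Without WT WM1119 library 3 there were 6 calls, with HOXB3 and HOXB9 added as lower. A fit on these 5 libraries alone called none of the 4, with adjusted p-values of 0.0673 for HOXB4, 0.0908 for HOXB8, 0.0955 for HOXA2 and 0.152 for HOXC9.

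**Figure D3:**
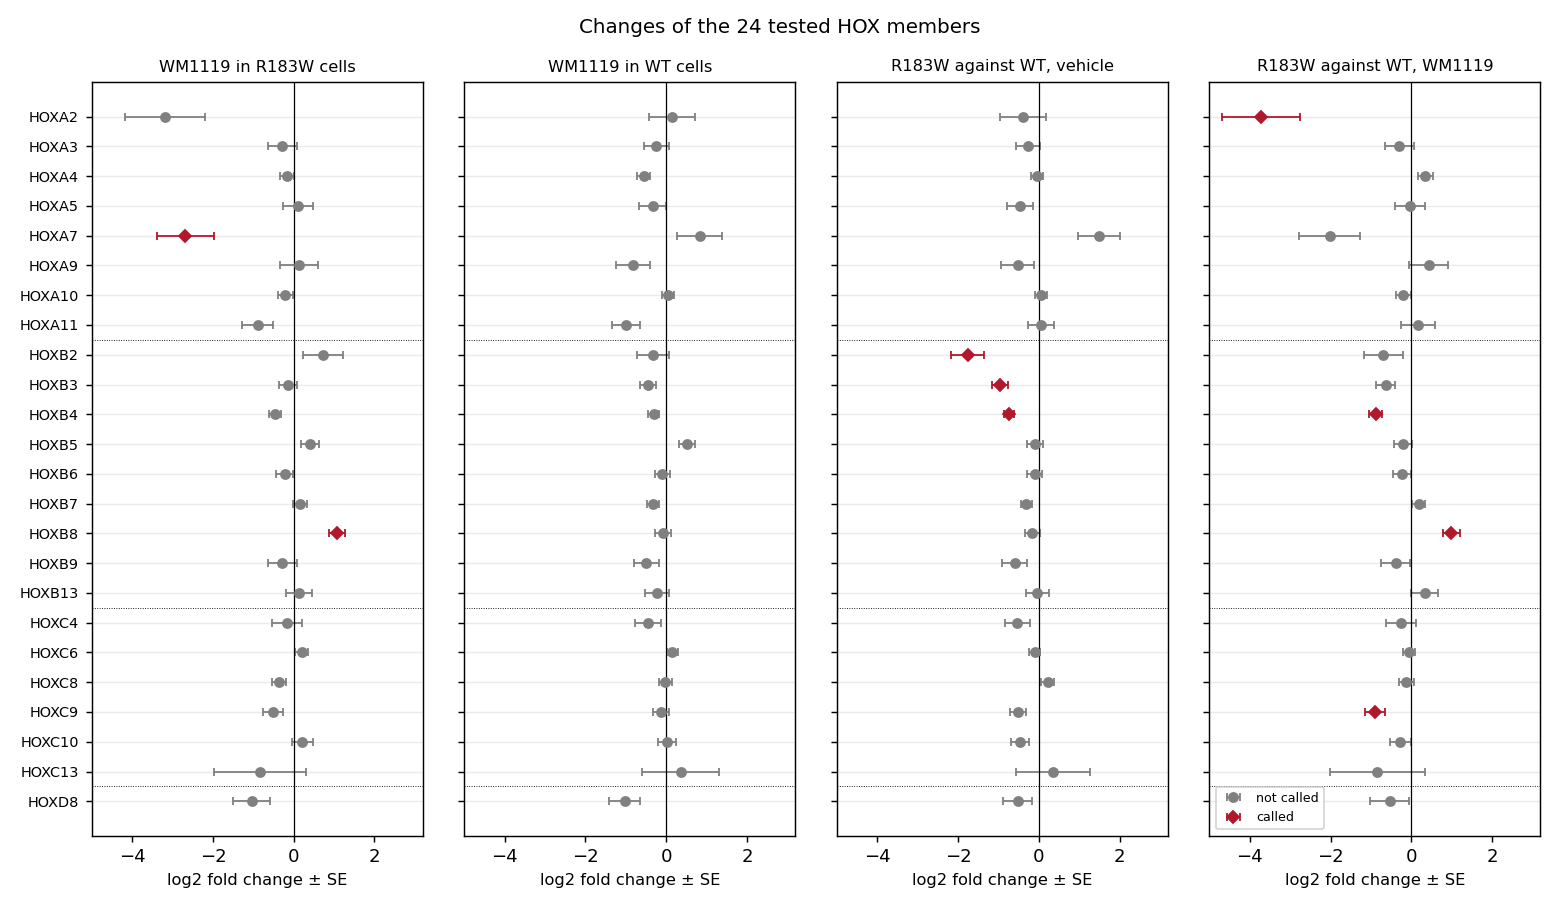
Log2 fold change with its SE for each of the 24 tested members in the 4 comparisons between groups, listed by cluster and paralog number, with called members as red diamonds. HOXB2, HOXB3 and HOXB4 sit to the left of 0 in R183W against WT cells under vehicle, and HOXB8 sits near 1 in both comparisons that involve R183W cells with WM1119 as the first group.

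With WM1119 in R183W cells, 2 members changed in opposite directions. HOXB8 was higher and HOXA7 lower than with vehicle. These 2 of 24 members compare with 4.64% of all genes tested. The HOX median log2 change was -0.18, against 0.00 over all genes tested. HOXB8, which patterns the trunk and is active in blood cell precursors, had 34.8 and 30.2 CPM with WM1119, against 17.3, 15.2 and 13.8 CPM with vehicle. The 2 libraries with WM1119 were the highest of all 11, since WT libraries ran from 13.8 to 18.2 CPM with WM1119 and from 15.6 to 18.5 CPM with vehicle. The log2 change in R183W cells was 1.07 (SE 0.21, edgeR adjusted p = 0.00952), and the difference from WT cells under WM1119 was 0.99 (SE 0.21, edgeR adjusted p = 0.0103).

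The genes on either side of HOXB8 did not pass the test. HOXB7 had 61.7 and 58.9 CPM with WM1119, against 49.2, 55.6 and 57.6 CPM with vehicle in R183W cells (0.16, SE 0.16, edgeR adjusted p = 0.644). HOXB9 had 33.4 and 42.6 CPM against 40.1, 46.2 and 52.1 CPM (-0.28, SE 0.36, edgeR adjusted p = 0.718). Per kb, HOXB8 reached 0.420 and 0.382 of the HOXB7 level in R183W WM1119 libraries, against 0.178 to 0.262 in R183W vehicle libraries. In WT libraries that ratio was 0.174 to 0.277 with WM1119 and 0.157 to 0.230 with vehicle. The HOXB8 call in R183W cells was lost without R183W WM1119 library 1 (adjusted p = 0.140) or 2 (0.0663) or R183W vehicle library 3 (0.0523).

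HOXA7, another trunk gene, had 0.480 and 0.604 CPM in R183W cells with WM1119, against 4.29, 3.42 and 3.04 CPM with vehicle. The values with WM1119 lie under the floors of their libraries, and 4 counts against 57 gave a ratio of 0.147 with an exact 95% counting interval of 0.0387 to 0.397. The fitted log2 change was -2.68 (SE 0.71, edgeR adjusted p = 0.0472). This call is near the threshold: it was lost in 9 of the 11 fits that leave out 1 library, with adjusted p-values of 0.0543 to 0.291, and was held without WT WM1119 library 1 or 3. Without WT WM1119 library 3, HOXA2 and HOXB4 were also called as lower with WM1119, giving 4 calls. HOXA2 had 2 counts with WM1119 and 40 with vehicle in R183W cells, a ratio of 0.105 with an exact 95% counting interval of 0.0123 to 0.404 (edgeR adjusted p = 0.0860). For HOXB4 the log2 change was -0.46 (SE 0.16, edgeR adjusted p = 0.118).

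**Figure D4:**
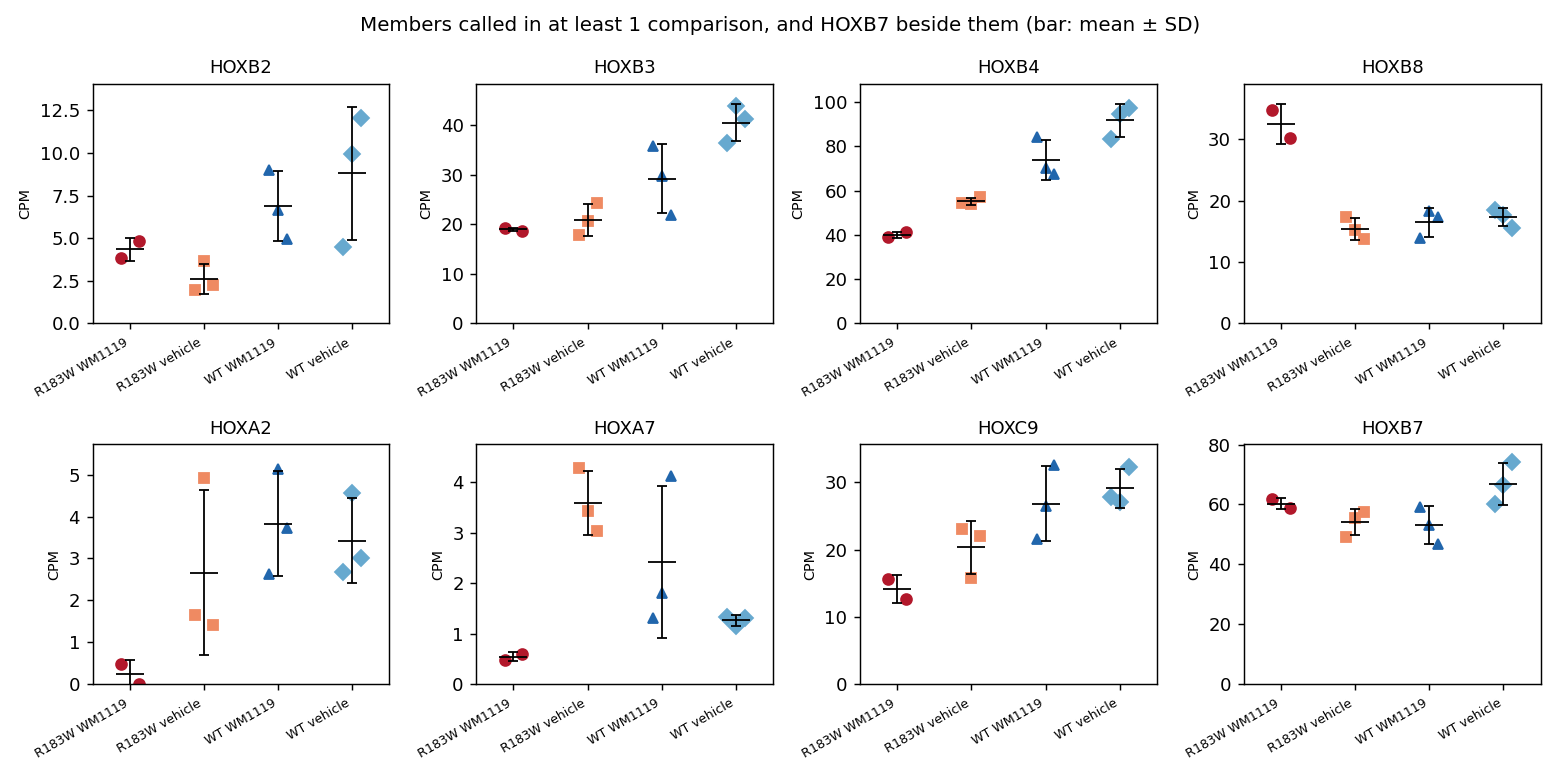
CPM in every library, by group, of the 7 members called in at least 1 comparison and of HOXB7, a neighbour of HOXB8; bars are the mean and SD, cut at 0. The R183W WM1119 libraries are the highest for HOXB8 and the lowest for HOXA7 and HOXA2, and HOXB4 is lower in all R183W than in all WT libraries.

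In WT cells WM1119 changed no member past the edgeR threshold, against 4.86% of all genes tested. At an unadjusted p under 0.05 there were 7 members, 1 higher and 6 lower, against 21.3% of all genes tested. DESeq2 called 1 member, HOXA4 as lower, and limma-voom called 0. The HOX median log2 change was -0.24, against 0.00 over all genes tested. HOXA4, the third highest member per kb, had 36.5, 51.4 and 38.0 CPM with WM1119, against 61.4, 64.8 and 58.7 CPM with vehicle in WT cells. The groups did not overlap (-0.55, SE 0.16, edgeR adjusted p = 0.0662), and HOXA4 passed without WT WM1119 library 2, as the only member called. In R183W cells HOXA4 had 48.5 and 58.9 CPM with WM1119, against 64.3, 59.9 and 55.6 CPM with vehicle, which overlap.

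HOXB5, the highest member per kb, had 108, 117 and 178 CPM in WT cells with WM1119, against 105.5, 103.5 and 72.6 CPM with vehicle. The highest value comes from WT WM1119 library 3, and the log2 change was 0.51 (SE 0.20, edgeR adjusted p = 0.165). In R183W cells it had 118 and 113 CPM with WM1119, against 104, 76.6 and 81.9 CPM with vehicle (0.40, SE 0.22, edgeR adjusted p = 0.352). HOXC8, the top of cluster C per kb, had 35.0 and 26.9 CPM with WM1119, against 38.3, 38.3 and 43.8 CPM with vehicle in R183W cells (-0.37, SE 0.18, edgeR adjusted p = 0.275). WT cells had 30.8, 35.4 and 35.5 CPM with WM1119, against 32.8, 34.5 and 35.8 CPM with vehicle.

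HOXD8 and HOXA11 were at lower values with WM1119 in both genotypes without passing the test in either. HOXD8 had 4.56 and 3.02 CPM with WM1119, against 4.79, 8.56 and 10.5 CPM with vehicle in R183W cells (-1.04, SE 0.46, edgeR adjusted p = 0.234). WT cells had 6.37, 7.19 and 2.48 CPM of HOXD8 with WM1119, against 9.37, 11.2 and 13.4 CPM with vehicle (-1.03, SE 0.38, edgeR adjusted p = 0.141). HOXA11 had log2 changes of -0.89 (SE 0.39, edgeR adjusted p = 0.227) in R183W cells and -0.99 (SE 0.35, edgeR adjusted p = 0.120) in WT cells, where it passed without WT WM1119 library 1. Neither gene's libraries overlapped between treatments in either genotype. Without overlap, 12 of 24 members differed between treatments in R183W cells and 7 of 24 in WT cells, against 46.8% and 22.3% of all genes tested. HOXA10, the main endometrial member, had 60.5 and 51.6 CPM with WM1119, against 52.8, 66.6 and 74.8 CPM with vehicle in R183W cells. In WT cells it had 63.5, 62.7 and 66.9 CPM with WM1119, against 70.7, 57.2 and 59.1 CPM with vehicle, and its log2 changes were between -0.20 and 0.05 in the 4 comparisons.

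The interaction, the log2 change with WM1119 in R183W cells minus the change in WT cells, called no member by edgeR, against 0.286% of all genes tested. At an unadjusted p under 0.05 there were 4 members, against 9.3% of all genes tested: HOXA2 and HOXA7 were negative, and HOXB7 and HOXB8 were positive. DESeq2 called HOXB8 alone and limma-voom called 0. For HOXB8 the interaction was 1.15 (SE 0.29, edgeR adjusted p = 0.151). The changes of HOXB8 in the 2 genotypes are therefore not shown to differ.

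Among the 9 PBX, MEIS and PKNOX partners of HOX proteins, 7 were tested. Of all genes tested, edgeR called 4.64% with WM1119 in R183W cells, 13% between the genotypes under vehicle and 8.56% under WM1119. In R183W cells WM1119 lowered PBX3 (-0.93, SE 0.23, edgeR adjusted p = 0.0345) and PKNOX1 (-0.97, SE 0.20, edgeR adjusted p = 0.0163). R183W cells were lower than WT cells in PBX2, PBX3 and MEIS3 under vehicle (-1.03, -0.61 and -0.66) and in PBX3 under WM1119 (-1.30), with no tested partner called as higher. The median of the 7 log2 differences was -0.61 under vehicle and -0.37 under WM1119. PBX3 averaged 20.5 ± 6.33 CPM (SD, n = 2) in R183W cells with WM1119 and 39.4 ± 1.89 (n = 3) with vehicle, against 50.6 ± 12 in WT cells with WM1119 and 60.3 ± 1.08 with vehicle (n = 3 each).

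Noncoding genes of the HOX clusters were counted for 10 tested of 18 listed. Of these, edgeR called 1 with WM1119 in R183W cells and 2 between the genotypes under WM1119, against 4.64% and 8.56% of all genes tested. HOXA-AS2, next to HOXA3, was higher with WM1119 in R183W cells (0.92, SE 0.20, edgeR adjusted p = 0.0200) and higher in R183W than in WT cells under WM1119 (0.88, SE 0.20, edgeR adjusted p = 0.0165). HOTAIRM1, at the low-numbered end of cluster A, was higher in R183W than in WT cells under WM1119 (0.96, SE 0.18, edgeR adjusted p = 0.00538). It averaged 175 ± 34.5 CPM in R183W cells with WM1119 and 124 ± 6.68 with vehicle, against 89.4 ± 18.9 in WT cells with WM1119 and 111 ± 13.2 with vehicle. The labels and processing notes do not state whether strand was used in counting, so reads of these antisense genes and of their coding neighbours cannot be told apart with certainty.

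Of the regulators, the 8 members of the KAT6A/KAT6B complex had no call in any of the 5 comparisons by edgeR; limma-voom called none either, and DESeq2 called 1, with WM1119 in WT cells. At an unadjusted p under 0.05 edgeR had 1 with WM1119 in R183W cells and 3 in WT cells, all higher, and 1 lower in R183W than in WT cells under WM1119. At that threshold, 1344 and 1591 of all 13980 genes tested were higher in the treatment comparisons, and 1653 were lower in the genotype comparison. Of the 18 tested Polycomb genes, EZH2, the methyltransferase subunit, was lower with WM1119 in R183W cells (-0.76, SE 0.16, edgeR adjusted p = 0.0153) and higher in R183W than in WT cells under vehicle (0.49, SE 0.14, edgeR adjusted p = 0.0312). SUZ12, its partner, was lower in R183W than in WT cells under vehicle (-0.49) and under WM1119 (-0.53). Of the 14 MLL and menin genes, 1 was called between the genotypes under each treatment, AFF1 as lower in R183W cells under vehicle (-1.22) and PSIP1 under WM1119 (-0.54). Beside the calls in these lists, edgeR called 13% of all genes tested between the genotypes under vehicle and 8.56% under WM1119. With WM1119 it called 4.64% in R183W cells and 4.86% in WT cells. In the retinoic acid list, with 11 of 17 tested, R183W cells had more ALDH1A1, which makes retinoic acid, under vehicle (1.78, SE 0.34, edgeR adjusted p = 0.00369) and under WM1119 (2.71, SE 0.40, edgeR adjusted p = 0.000864). ALDH1A2 was higher under vehicle (1.74), and CYP26B1, which degrades retinoic acid, was lower under WM1119 (-1.29). Of the 8 tested Mullerian and endometrial partners, FOXO1 was lower with WM1119 in WT cells (-0.74) and WNT5A lower in R183W than in WT cells under vehicle (-0.83).

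The marker lists moved with the groups as well. The 6 epithelial markers summed to 1630 CPM in both R183W WM1119 libraries and 1650 to 1850 in R183W vehicle libraries, against 1190 to 1540 in WT WM1119 and 979 to 1230 in WT vehicle libraries. The fibroblast and stromal markers summed to 653 to 655, 829 to 1050, 945 to 1080 and 716 to 870 CPM in the same groups. KRT18 was most of the epithelial sum, at means of 1440 CPM in R183W and 871 in WT vehicle libraries. EPCAM went the other way, at 38.4 against 59.7 CPM, and so did CLDN4, at 6.50 against 26.4. Of the 4 epithelial markers tested, edgeR called 2 as higher and 2 as lower in R183W than in WT cells under vehicle, against 13% of all genes tested in either direction. COL1A1 was most of the stromal sum, at means of 835 CPM in R183W and 615 in WT vehicle libraries, and of 566 and 844 with WM1119. PDGFRB averaged 0.271 ± 0.0439 CPM (SD, n = 2) in R183W cells with WM1119 and 5.82 ± 2.16 (n = 3) with vehicle, against 22.5 ± 8.25 in WT cells with WM1119 and 38.5 ± 12.1 with vehicle (n = 3 each). Under vehicle PDGFRB thus went the other way from COL1A1. Of the 4 stromal markers tested, edgeR called 1 as higher and 1 as lower in R183W than in WT cells under vehicle. The 5 immune markers summed to at most 11.2 CPM in any library, nearly all of it CD68, and the 3 endothelial markers in the table to at most 0.856 CPM. The part of these differences in the HOX results was not tested.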

How the data were processed

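The authors deposited expected counts per gene, here as whole numbers. STAR, RSEM and the hg19 build are named, per the submitters' processing notes, without versions. The 11 libraries of 4 groups are labelled polyA RNA, and a ScriptSeq Gold kit was used, per the labels' protocols. Counts were scaled to CPM with TMM factors and filtered with filterByExpr (minimum count 10), which left 13980 genes holding at least 99.73% of each library. Symbols came from a list of gene names by Ensembl identifier, in which 51959 identifiers of the counts matched. Exon lengths came from GENCODE release 29, whose build differs from that of the counts. edgeR 4.0.16 in R 4.3.3 fitted 4 group means to all 11 libraries without a block (quasi-likelihood F test, two-sided; SE as the log2 change over the root of F); a gene was called at a Benjamini-Hochberg adjusted p under 0.05 over all genes tested. The scripts were tested on simulated data. Alternatives were RLE scaling, no filter, DESeq2 1.42.0, limma-voom 3.58.1, only the groups compared, a replicate block, each library left out, and the longest transcript as length. The comparisons share groups and are not independent. Values of every library are given for members called in at least 1 of 5 comparisons and for the highest per kb in each cluster, and for further members chosen after their values were seen; of each context list, up to 3 called genes with the largest changes are named, and some genes so selected are left out here, though list sizes and medians include them. Members and lists were chosen with earlier results of these data known.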

Additional observations from a re-analysis of the deposited data

Results flagged for a closer look

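HOXA7 stood out because its genotype difference pointed opposite ways under the treatments, with no overlap. It had 0.480 and 0.604 CPM in R183W WM1119 libraries, against 1.32, 1.80 and 4.13 CPM in WT WM1119 libraries; under vehicle it had 4.29, 3.42 and 3.04 CPM in R183W cells, against 1.34, 1.14 and 1.32 CPM in WT cells. The interaction was -3.51 on the log2 scale (SE 0.91), which edgeR did not call (adjusted p = 0.168), so the treatment effects are not shown to differ between the genotypes. HOXB7 was higher with WM1119 than with vehicle in every R183W library and lower in every WT library. It had 59.3, 53.2 and 46.6 CPM with WM1119, against 60.0, 66.3 and 74.1 CPM with vehicle in WT cells. Its interaction was 0.48 (SE 0.22, edgeR adjusted p = 0.511), likewise not called.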

How the results depend on the processing

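No fold change of a called member reversed sign under any alternative. Of the 9 calls, 44 of 54 repeats under other settings and 73 of 99 with 1 library left out kept direction and significance. For WM1119 in R183W cells the count of 2 members became 1 with limma-voom, and 0 to 4 with 1 library left out. With only the groups compared it became 3, as HOXB4 was added as lower. In WT cells DESeq2 called 1 where edgeR called 0, and leaving out 1 library gave 0 to 1. For R183W against WT under vehicle, 3 became 5 with no filter on low counts, 5 with only the groups compared, and 2 to 5 with 1 library left out. Under WM1119, 4 became 2 with limma-voom, 0 with only the groups compared, and 0 to 6 with 1 library left out. DESeq2 called 1 interaction, and leaving out 1 library gave 0 in each case. Where that leaves R183W WM1119 with 1 library, it is assumed to vary like the other groups. limma-voom gave adjusted p-values of 0.0826 for HOXA7 with WM1119 in R183W cells, and of 0.0872 for HOXA2 and 0.0749 for HOXC9 between the genotypes under WM1119. The cause of these shifts was not tested.

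Libraries with the same replicate number did not deviate together: over 15 such pairs r ran from -0.391 to 0.137, with 2 pairs over 0.1, and 2 of 11 libraries correlated best with their own number. The labels do not say that a number marks a shared batch, so the numbers do not pair the libraries. With the replicate block, the 2 calls for WM1119 in R183W cells became 0, with adjusted p-values of 0.126 for HOXA7 and 0.0519 for HOXB8, and HOXC9 between the genotypes under WM1119 was lost (0.096); no other member's call changed. Taking the longest transcript as length moved 6 of 38 levels per kb by more than 1 SD. HOXA2 with WM1119 in R183W cells had 2 counts against 40 with vehicle and was not called, but with no filter on low counts it was called as lower, giving 3 calls. What depth contributed was not tested.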
